A study of Mus musculus with 60 samples.

Results

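TRBD1 and TRBD2 are the 2 diversity (D) segments of the mouse T cell receptor β locus, and every clonotype of the TCRβ tables was assigned by the D call beside it, as TRBD1, TRBD2 or no D segment. The CD4+ table listed 85775 clonotypes, of which 37602 (43.8%) carried a TRBD1 call, 29028 (33.8%) a TRBD2 call and 19145 (22.3%) none. The CD8+ table listed 82447 clonotypes, with 34548 (41.9%) called TRBD1, 26274 (31.9%) called TRBD2 and 21625 (26.2%) without a call. The D segments were 2 of the 43 V, D and J segments named over the 2 tables together. The share of a class in a library was the sum of its clonotype frequencies divided by the summed frequency of all listed clonotypes.

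The T cells came from a mouse model of graft-versus-host disease (GVHD), in which donor T cells attack the tissues of a host given hematopoietic cell transplantation (HCT). The recipients, WT BALB/c mice after lethal irradiation, received WT C57BL/6 marrow depleted of T cells together with CD90.2+ T cells from WT, STAT3ko or STAT3koPD-1ko C57BL/6 donors. STAT3ko donors carried STAT3 fl/fl alleles deleted by CD4-Cre, so that the deletion is found in T cells, and STAT3koPD-1ko donors in addition lacked PD-1 throughout the body. The 60 libraries of the series included 30 of the β chain: in each of CD4+ and CD8+ cells, 3 libraries of donor spleen T cells before HCT (1 per genotype), 6 of liver and 6 of gut on day 6 after HCT (2 per genotype and tissue). Each day 6 sample was pooled from 3 recipients and sorted as H-2Kb+TCRβ+ cells, so p-values measure the spread between pools. Because the tables hold receptor transcripts only, neither the CD4+ and CD8+ gates nor the deletion of Stat3 could be checked against other genes here.

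The files give fractions of reads and no read counts, so the depth behind each value is unknown. Only CDR3s found in at least 2 of the joined libraries were kept, and a library listed between 3418 and 29839 clonotypes. The 3 gut libraries of replicate 2 stood apart in both tables. Their listed clonotypes held 47.8% to 51.5% of the CD4+ reads and 53.2% to 58.0% of the CD8+ reads, against 81.6% to 97.2% and 81.5% to 98.4% in the other libraries, and differences in shares and lengths between gut and liver are therefore also given within replicate 1 and replicate 2. No pair of libraries was a duplicate (highest correlation of clonotype frequencies 0.622 in CD4+ and 0.619 in CD8+ cells).

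A β chain is assembled by joining first a D to a J segment and then a V segment to the DJ unit. TRBD1 lies upstream of both J clusters and can join TRBJ1 or TRBJ2 segments by deletion, whereas TRBD2 lies between TRBJ1 and TRBJ2 and joins TRBJ2 by deletion. The D segment, trimmed at both ends and flanked by added nucleotides, forms the centre of the third complementarity-determining region (CDR3), the loop that touches the peptide. Both mouse D segments are rich in guanine and encode glycine in each of the 3 reading frames.

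The germline segments are shown because every D call rests on a few of their bases, read here from the GRCm38 (mm10) annotation on the plus strand of chromosome 6, with the differing base of the shared start in capitals.
TRBD1, chr6:41533201-41533212: gggacAgggggc
TRBD2, chr6:41542163-41542176: gggacTgggggggc
TRBD1 is 12 bases long and TRBD2 is 14. Counted from 1 at the 5′ end of TRBD1, the first difference is A6T, after 5 shared bases, and the longest run found in both is 6 bases. TRBD1 lies 651 bases before TRBJ1-1 (chr6:41533864-41533911). TRBD2 lies 6475 bases after TRBJ1-7 and 577 before TRBJ2-1, and the last of the cluster, TRBJ2-7, is at chr6:41543810-41543856. The annotation lists TRBJ2-6 as a pseudogene.

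One V segment is shown as well because a stretch of it was read as TRBD2 in many clonotypes. TRBV26 lies at chr6:41227505-41227993 on the plus strand, and its last 80 bases follow with that stretch in capitals.
TRBV26, chr6:41227914-41227993: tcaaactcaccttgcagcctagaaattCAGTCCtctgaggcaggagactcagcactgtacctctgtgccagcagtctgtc
The stretch occupies chr6:41227941-41227946, 30 bases upstream of the codon of the conserved cysteine at which a CDR3 starts. CAGTCC is the reverse complement of bases inside TRBD2. A CD4+ clonotype that carries it was listed in all 15 CD4+ libraries, and its sequence begins in the V segment well before the cysteine codon. By the sense match described below, this clonotype is also TRBD2, over 6 other bases that may include germline V bases.
CD4+ TRBV26 and TRBJ2-4, called TRBD2: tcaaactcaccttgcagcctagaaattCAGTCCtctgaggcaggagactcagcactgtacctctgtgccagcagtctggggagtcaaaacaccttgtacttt

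Leading clonotypes of each class by mean frequency are given next, to show what a call looks like in the junction, with the bases assigned to the D segment in capitals.
CD4+ TRBV16 and TRBJ2-3, TRBD1: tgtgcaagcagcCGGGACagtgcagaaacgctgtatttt
CD4+ TRBV13-2 and TRBJ1-1, TRBD1: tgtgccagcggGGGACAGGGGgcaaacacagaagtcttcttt
CD4+ TRBV13-1 and TRBJ1-4, TRBD1: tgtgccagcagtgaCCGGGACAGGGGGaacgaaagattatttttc
CD4+ TRBV16 and TRBJ2-5, TRBD2: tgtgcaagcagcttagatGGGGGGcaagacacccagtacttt
CD4+ TRBV13-1 and TRBJ2-1, TRBD2: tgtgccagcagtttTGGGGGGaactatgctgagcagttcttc
CD4+ TRBV16 and TRBJ2-7, TRBD2: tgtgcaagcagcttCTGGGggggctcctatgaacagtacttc
CD4+ TRBV16 and TRBJ2-4, no D: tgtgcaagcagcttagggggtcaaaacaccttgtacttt
CD4+ TRBV14 and TRBJ2-7, no D: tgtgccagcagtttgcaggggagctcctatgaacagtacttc
CD8+ TRBV29 and TRBJ1-1, TRBD1: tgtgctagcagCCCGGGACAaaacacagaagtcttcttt
CD8+ TRBV29 and TRBJ1-1, TRBD1: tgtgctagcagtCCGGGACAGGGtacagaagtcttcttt
CD8+ TRBV14 and TRBJ2-1, TRBD1: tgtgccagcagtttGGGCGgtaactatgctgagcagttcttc
CD8+ TRBV13-3 and TRBJ2-4, TRBD2: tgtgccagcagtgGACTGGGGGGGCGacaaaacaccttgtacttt
CD8+ TRBV19 and TRBJ2-7, TRBD2: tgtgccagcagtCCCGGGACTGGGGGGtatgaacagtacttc
CD8+ TRBV17 and TRBJ2-7, TRBD2: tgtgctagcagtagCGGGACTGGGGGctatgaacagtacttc
CD8+ TRBV29 and TRBJ2-1, no D: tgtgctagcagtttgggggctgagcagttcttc
CD8+ TRBV13-1 and TRBJ2-3, no D: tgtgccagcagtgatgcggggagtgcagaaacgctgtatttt
The CD8+ TRBV13-3 clonotype reached 1.79% of a gut library and was listed in 2 libraries. The other CD8+ TRBD2 clonotypes shown were listed in all 15 libraries at mean frequencies of 0.101% and 0.0768%. In the CD4+ table the clonotypes shown held 0.0433% to 0.0859% of the reads on average. Several stretches begin with a cytosine complementary to the first germline bases, as in a short palindrome, and both CD4+ clonotypes without a call hold a run of guanines all the same.

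By the deposited calls TRBD1 was the most used class in every library. In CD4+ cells its share was 42.2% ± 2.16 (SD, n = 15 libraries), against 29.3% ± 3.55 for TRBD2 and 28.5% ± 3.11 for no D. In CD8+ cells the shares were 41.0% ± 1.5, 28.0% ± 1.03 and 31.0% ± 1.68. TRBD1 stood above TRBD2 and above no D in 15 of 15 libraries of each table, whereas the order of the lower classes varied, with no D above TRBD2 in 10 of 15 CD4+ and 14 of 15 CD8+ libraries. Of the frequency with a D call, TRBD1 held 59.1% ± 3.70 in CD4+ (53.4% to 64.8%) and 59.5% ± 1.35 in CD8+ cells (57.5% to 61.4%). This includes sense stretches found in both segments, which were all called TRBD1 and held 2.38% of CD4+ and 3.39% of CD8+ listed frequency. The order of TRBD1 and no D depended on the calling rule. With a D stretch of at least 6 bases, TRBD1 exceeded no D in 4 of 15 CD4+ and 0 of 15 CD8+ libraries, and TRBD2 in 13 and 15. By the longest sense match, described next, no D (equal matches included) was 41.0% ± 2.47 against 37.2% ± 1.78 for TRBD1 in CD4+ cells, and TRBD1 was the higher in 2 of 15 CD4+ and 0 of 15 CD8+ libraries. By that match TRBD1 stood above TRBD2 in 15 of 15 libraries of each table. Without TRBV26, TRBD1 exceeded no D in 13 of 15 CD4+ libraries. In these bulk samples, more cells with a receptor and more transcript per cell cannot be told apart.

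**Figure D1:**
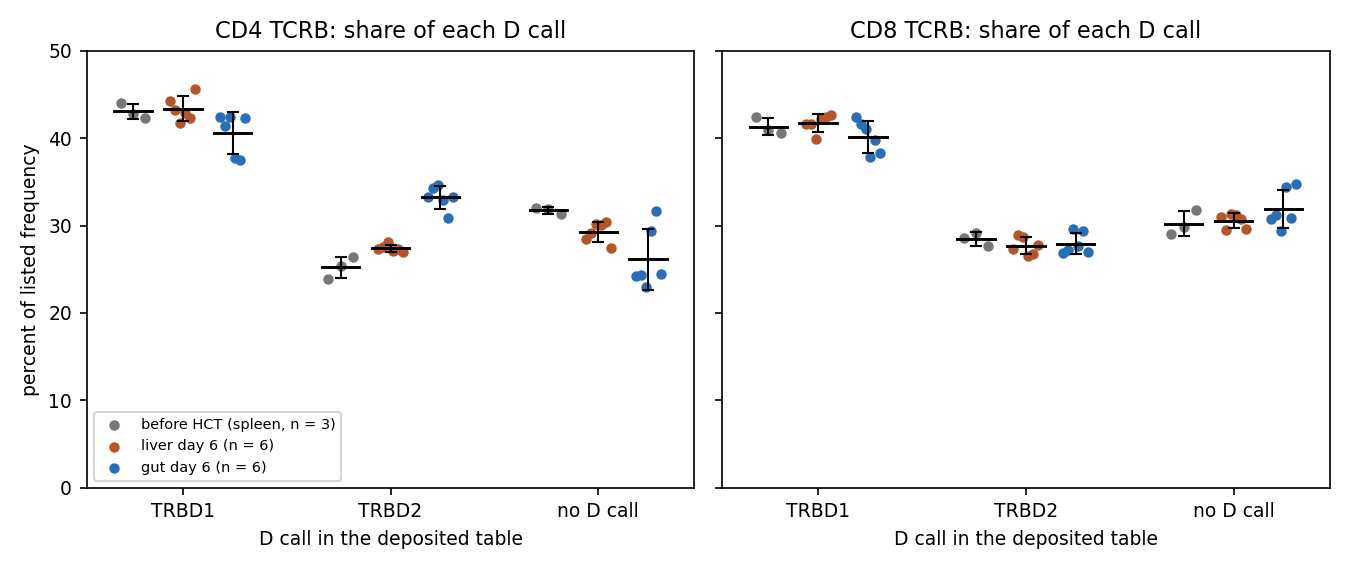
Share of listed clonotype frequency (percent, y axis) held by TRBD1, TRBD2 and no D call before HCT (n = 3) and in day 6 liver and gut (n = 6 each), in CD4+ and CD8+ cells. Points are libraries and bars the mean ± SD, and the CD4+ gut libraries lie between 30.9% and 34.6% for TRBD2, above the liver libraries at 26.9% to 28.2%.

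The calls differed in what they rested on. Among CD4+ clonotypes with a TRBD1 call, 59.1% carried a stretch found in TRBD1 alone on the sense strand and 4.99% (1878 clonotypes) one found in both segments. A further 26.5% had a sense stretch with a palindromic end, which was not checked against the other segment. Only the reverse complement matched in 1.05% (393 clonotypes). Among TRBD2 clonotypes the sense match alone came to 48.3%, the palindromic form to 15% and the reverse complement to 25.9% (7514 clonotypes). Of the CD8+ TRBD2 calls, 65.9% were sense matches and 5.16% (1356 clonotypes) reverse complement matches. Reverse complement calls were thus a larger part of TRBD2 in CD4+ than in CD8+ cells.

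TRBV26 held most of those CD4+ reverse complement calls. The CD4+ table listed 17815 TRBV26 clonotypes, of which 10702 (60.1%) were called TRBD2, 7112 TRBD1 and 1 no D. The stretch CAGTCC was the D match of 6874 of them (38.6%) and of 9 clonotypes of all other V segments, so that it made up 23.7% of the CD4+ TRBD2 class. In 6524 TRBV26 clonotypes, 61.0% of those called TRBD2, the matched bases lay before the cysteine codon, outside the CDR3. In the CD8+ table TRBV26 had 2415 clonotypes, 1502 of them called TRBD2, and 877 (58.4% of these calls) had the match before the cysteine codon. When D was instead assigned by the longest exact sense match of at least 5 bases after the V segment, CD4+ TRBV26 frequency was 43.9% TRBD1, 16.2% TRBD2, 4.48% matched equally and 35.4% without a match. For 17810 of the TRBV26 clonotypes no V end was listed, so this match began after 11 fixed bases from the cysteine codon and may include germline bases.

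With TRBV26 left out, 93.9% of CD4+ TRBD2 clonotypes were also TRBD2 by the sense match. With it, the share was 69.4%, and 19.0% had no match of 5 bases. For TRBD1 without TRBV26 the sense match gave the same call in 81.8% of CD4+ and 79.7% of CD8+ clonotypes, while 12.3% and 13.8% matched both segments equally and 5.09% and 5.58% neither. Of TRBD2 clonotypes without TRBV26, 0.884% in CD4+ and 0.860% in CD8+ cells matched both equally. The comparisons of CD4+ TRBD2 between groups are therefore given also without TRBV26. The sense match was added after the values had been seen.

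The J clusters were used differently by the classes. In CD4+ cells TRBJ1 segments held 44.2% ± 2.48 of TRBD1 frequency (41.1% to 49.4%, n = 15), 16.7% ± 6.23 of TRBD2 frequency (8.58% to 25.5%) and 38.9% ± 2.33 of the frequency without a D call. In CD8+ cells the same shares were 40.7% ± 1.55, 7.82% ± 1.03 (6.33% to 10.1%) and 36.1% ± 2.13. Without TRBV26 the TRBJ1 share of TRBD2 was 6.29% ± 1.20 in CD4+ cells (3.99% to 8.18%) and 7.15% ± 0.865 in CD8+ cells, so the wide CD4+ range lay in the TRBV26 clonotypes. Of the TRBV26 clonotypes with the stretch, 3304 (48.1%) were joined to TRBJ1.

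TRBJ2-7 was the leading partner of TRBD2 in both tables, at 23.6% ± 2.44 of the class frequency in CD4+ and 32.1% ± 2.45 in CD8+ cells. In CD4+ cells TRBJ2-5 followed at 15.9%, TRBJ2-3 at 12.9%, TRBJ2-4 at 12.6%, TRBJ2-1 at 12.3% and TRBJ2-2 at 6.01%. In CD8+ cells TRBJ2-1 came next at 21.5% ± 1.91, then TRBJ2-5 at 13.4%. Without TRBV26 the CD4+ order changed, with TRBJ2-7 at 27.9%, TRBJ2-5 at 18.9%, TRBJ2-1 at 14.3%, TRBJ2-3 at 13.6% and TRBJ2-4 at 13.4%. The TRBJ1 segments held from 5.40% (TRBJ1-1) down to 0.438% (TRBJ1-5) of CD4+ TRBD2, and from 2.34% down to 0.235% without TRBV26. TRBD1 was spread over both clusters, led in CD4+ cells by TRBJ1-1 (16.2%) and TRBJ2-7 (15.7%) and in CD8+ cells by TRBJ2-7 (22.2%), TRBJ1-1 (17.8%) and TRBJ2-1 (14.3%).

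TRBD2 calls joined to TRBJ1 depended on the length of the match. By the sense match, 295 of 1534 CD4+ TRBD2 clonotypes matched over 5 bases (19.2%) were joined to TRBJ1, and the share was 16.1% at 6 bases, 13.0% at 7, 4.42% at 8, 1.20% at 9 and 0.426% at 10. At 10 or more matched bases it was 12 of 6292 (0.191%), or 5 of 5475 (0.0913%) without TRBV26. In CD8+ cells it went from 16.3% at 5 bases to 0.129% at 10, with 4 of 7787 (0.0514%) at 10 or more. TRBD1 showed no such course, at 44.6% to 50.4% in CD4+ and 43.5% to 49.2% in CD8+ cells over its match lengths. The stretch assigned by the deposited call held the complete germline segment in 409 CD4+ and 581 CD8+ TRBD2 clonotypes (14 bases) and in 704 and 651 TRBD1 clonotypes (12 bases).

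**Figure D2:**
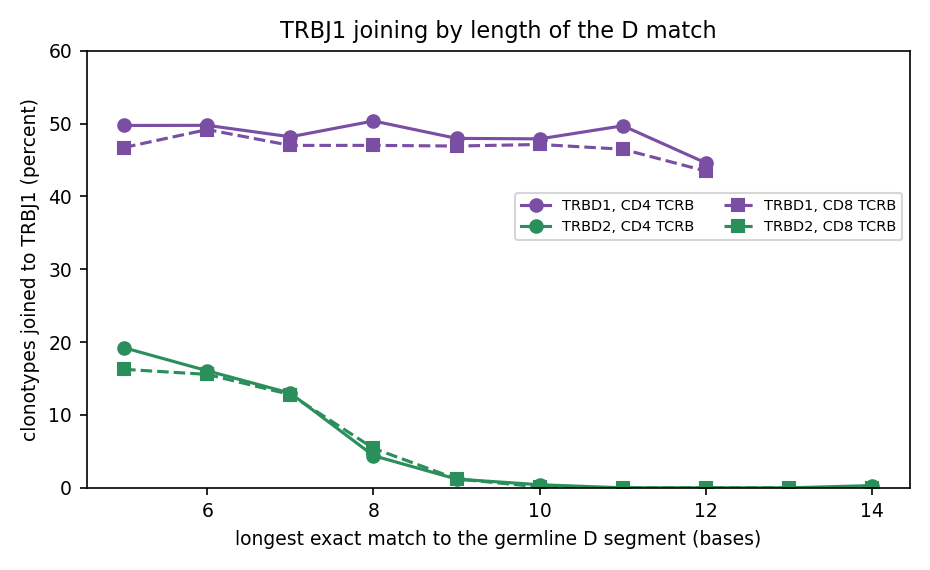
Percent of clonotypes joined to a TRBJ1 segment (y axis) against the length of the longest exact sense match in bases (x axis) for TRBD1 and TRBD2 in both tables. The CD4+ TRBD2 points go from 19.2% at 5 bases to 0.426% at 10, while the TRBD1 points stay between 43.5% and 50.4%.

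The leading clonotypes that pair TRBD2 with TRBJ1 are shown because deletional joining does not make this pair, with the bases assigned to TRBD2 in capitals.
CD4+ TRBV14 and TRBJ1-1: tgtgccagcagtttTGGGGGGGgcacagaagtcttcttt
CD4+ TRBV4 and TRBJ1-6: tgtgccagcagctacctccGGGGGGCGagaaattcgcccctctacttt
CD8+ TRBV29 and TRBJ1-4: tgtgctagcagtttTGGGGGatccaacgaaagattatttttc
CD8+ TRBV29 and TRBJ1-3: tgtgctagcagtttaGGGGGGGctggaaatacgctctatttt
In each of them the matched bases are a run of guanines with at most a few other letters, and none holds the shared start of the D segments. The CD4+ clonotypes had mean frequencies of 0.0413% and 0.0177%.

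CDR3s with a D call were longer than those without. The call needs matching bases between V and J and is thus not independent of length, so these values are a description. Over CDR3s that run from the cysteine to the J anchor, the mean CD4+ length was 13.9 ± 0.0872 amino acids for TRBD1, 14.3 ± 0.145 for TRBD2 and 13.0 ± 0.0672 without a call (n = 15). In CD8+ cells it was 13.6 ± 0.105, 14.2 ± 0.118 and 12.6 ± 0.0787. These means, and the stretches and gaps below, also required a listed V end, which 17810 of the 17815 CD4+ TRBV26 clonotypes lacked. TRBD2 exceeded TRBD1 by 0.440 amino acids in CD4+ and 0.625 in CD8+ cells, and this order held in 15 of 15 libraries of each table. The assigned stretch was 8.69 bases for TRBD2 and 7.44 for TRBD1 in CD4+ cells, and 8.97 and 7.43 in CD8+ cells. The bases on either side of it between V and J differed less between the segments, at 2.20 for TRBD1 and 2.10 for TRBD2 in CD4+ and 2.20 and 2.12 in CD8+ cells. Without a D call the gap between V and J was 3.85 bases in CD4+ and 3.87 in CD8+ cells.

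**Figure D3:**
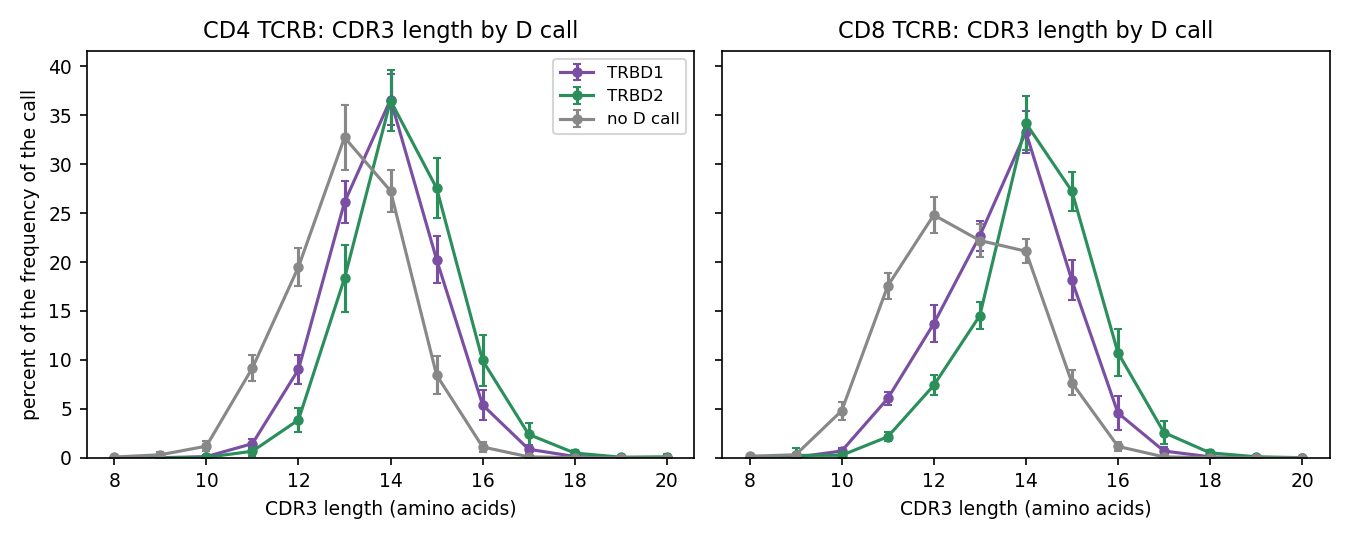
Percent of the frequency of each D class (y axis) by CDR3 length in amino acids (x axis, 8 to 20) for CD4+ and CD8+ cells, as mean ± SD over 15 libraries and over CDR3s that start at the cysteine. The curves of TRBD2 lie to the right of those of TRBD1, and those of no D to the left, with CD4+ means of 14.3, 13.9 and 13.0.

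The base A6T changes the residues that 2 of the 3 reading frames encode. TRBD1 reads Gly-Thr-Gly, Gly-Gln-Gly or Asp-Arg-Gly, and TRBD2 reads Gly-Thr-Gly, Gly-Leu-Gly or Asp-Trp-Gly. In CD4+ cells Gly-Gln-Gly was in 7.41% ± 2.38 and Asp-Arg-Gly in 8.03% ± 1.38 of TRBD1 frequency, against 0.0497% and 0.554% of TRBD2. Conversely, Gly-Leu-Gly was in 8.74% ± 1.59 and Asp-Trp-Gly in 15.2% ± 2.29 of TRBD2 frequency, against 0.140% and 0.119% of TRBD1. The shared frame, Gly-Thr-Gly, came to 6.01% ± 0.900 of TRBD1 and 6.88% ± 1.12 of TRBD2. The bulky pair Trp-Gly was present in 25.8% ± 2.77 of CD4+ and 26.3% ± 1.89 of CD8+ TRBD2 frequency, and in 0.751% and 1.42% of TRBD1. A TRBD2 CDR3 held 1.95 glycines on average in CD4+ cells, a TRBD1 CDR3 1.37 and a CDR3 without a call 0.699, with 1.94, 1.39 and 0.670 in CD8+ cells. These residues follow from the sequences by which the class was called, and were counted over CDR3s that run from the cysteine to the J anchor. A listed V end was also required, which 17810 of the 17815 CD4+ and all 2415 CD8+ TRBV26 clonotypes lacked, so TRBV26 is nearly absent from these values.

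The first comparison between sites asked whether the classes were used differently by donor T cells in liver and gut on day 6. In CD4+ liver the TRBD2 share was 26.9% to 28.2%, with a median of 27.3% and a mean of 27.4% ± 0.429 (n = 6). In CD4+ gut it was 30.9% to 34.6%, with a median of 33.3% and a mean of 33.2% ± 1.31 (n = 6). All 6 gut libraries stood above all 6 liver libraries, a difference of 5.83 percentage points. The exact permutation test within genotype, two-sided, gave p = 0.00926, the smallest that its arrangements allow, and an adjusted p = 0.0556 over the 6 class and cell type tests. The liver libraries of WT, STAT3ko and STAT3koPD-1ko cells were at 27.3%, 27.5% and 28.2% in replicate 1 and at 27.1%, 27.3% and 26.9% in replicate 2, and the gut libraries at 33.3%, 34.3% and 34.6% and at 32.9%, 30.9% and 33.3%. Within replicate 1 the difference was 6.41 points and within replicate 2 it was 5.25 points, with 3 of 3 gut libraries above every liver library each time.

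The TRBV26 share differed between the same sites. TRBV26 held 4.86% ± 0.707 of the CD4+ frequency before HCT, 9.09% ± 1.83 in liver and 25.4% ± 1.76 in gut. Split by V segment, the TRBD2 share was made up of 5.74% with TRBV26 and 21.7% with other V segments in liver, and of 16.1% ± 1.31 and 17.1% ± 1.15 in gut. Without TRBV26 the TRBD2 share was 23.8% ± 1.07 in liver and 22.9% ± 1.30 in gut, a difference of -0.885 points (exact permutation p = 0.269, adjusted p = 0.322), with -1.01 points in replicate 1 and -0.763 in replicate 2. By the sense match it was 22.7% ± 1.18 in liver and 20.6% ± 1.28 in gut, a difference of -2.02 points (exact permutation p = 0.00926, adjusted p = 0.0556), with -2.27 points in replicate 1 and -1.77 in replicate 2. The direction of the CD4+ TRBD2 difference thus turned without TRBV26 and when D was called again in every V segment.

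**Figure D4:**
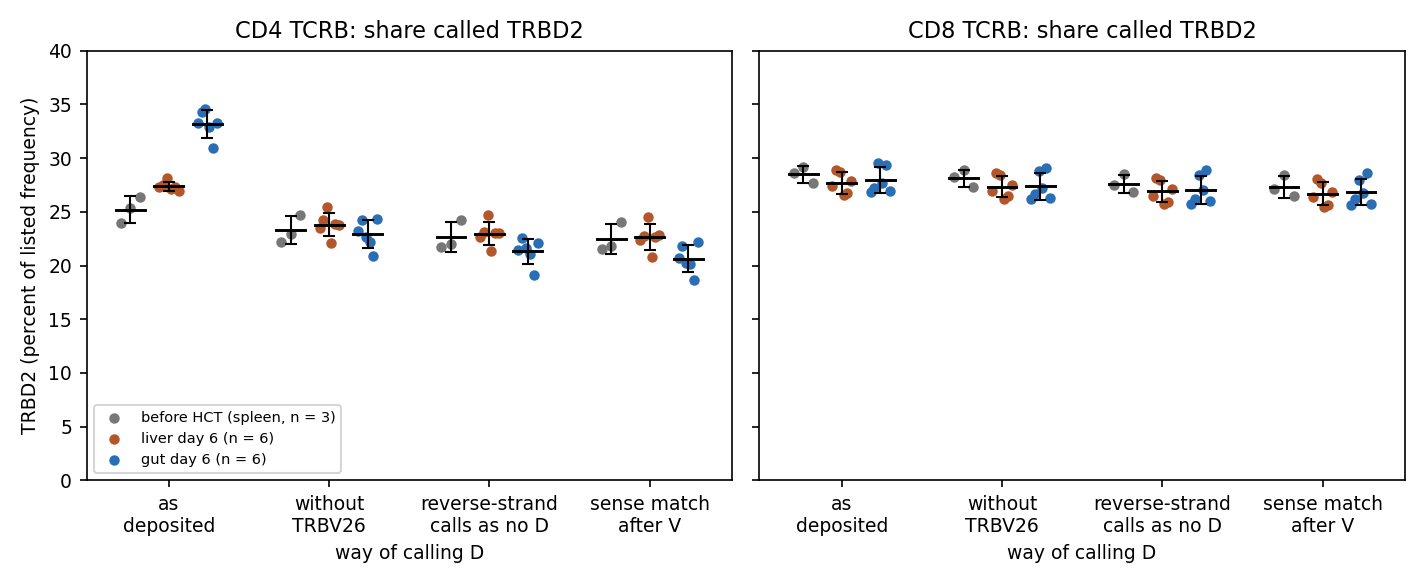
TRBD2 share (percent, y axis) before HCT (n = 3), in liver and in gut (n = 6 each) under 4 ways of counting: calls as deposited, without TRBV26, reverse-strand calls counted as no D, and a sense match after the V segment. Points are libraries and bars mean ± SD. In CD4+ cells the gut lies above the liver in the deposited calls (33.2% against 27.4%) and not in the other 3.

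The other CD4+ classes did not pass either, at p-values above the smallest possible. TRBD1 was at 43.3% ± 1.43 in liver and 40.6% ± 2.38 in gut (-2.71 points, exact permutation p = 0.0463, adjusted p = 0.139), with -0.984 points in replicate 1 and -4.44 in replicate 2. The share without a D call was 29.3% ± 1.16 in liver and 26.2% ± 3.48 in gut (-3.11 points, exact permutation p = 0.0833, adjusted p = 0.167). The gut libraries spread widely here, from 22.9% to 31.6%, with a difference of -5.42 points in replicate 1 and -0.802 in replicate 2. Without TRBV26 the TRBD1 difference was -1.98 points, with opposite signs in replicate 1 (0.477) and replicate 2 (-4.44). The no D difference was then 2.86 points, with 0.529 in replicate 1 and 5.20 in replicate 2.

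In CD8+ cells TRBV26 was rare, at 0.930% of the frequency in liver and 1.4% ± 0.407 in gut. TRBD2 was at 27.7% ± 0.989 in liver and 27.9% ± 1.23 in gut, a difference of 0.255 points (exact permutation p = 0.685) whose sign differed between replicates (-0.449 and 0.959). TRBD1 was at 41.7% and 40.2% (adjusted p = 0.236, exact permutation test) and no D at 30.6% and 31.9% (adjusted p = 0.356, exact permutation test). Their differences also had opposite signs in the replicates, with 0.643 points in replicate 1 and -3.77 in replicate 2 for TRBD1, and -0.194 and 2.81 for no D. The ranges of liver and gut overlapped in each class.

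The second comparison took the J cluster within each class. In CD4+ cells TRBJ2 segments held 86.6% ± 2.29 of TRBD2 frequency in liver (83.2% to 89.8%) and 76.5% ± 2.44 in gut (74.5% to 81.3%), lower by 10.1 points on average. The exact permutation test gave p = 0.00926 and an adjusted p = 0.037 over 6 tests, and the difference was -12.3 points in replicate 1 and -8.02 in replicate 2. Leaving out the STAT3ko replicate 1 library of liver or of gut raised the adjusted p to 0.0556 (exact permutation test) for TRBD2 and for TRBD1. With liver and gut of the same genotype and replicate number taken as a block, the differences were the same and the adjusted p was 0.125 for each (exact permutation test of the signs). With 6 pairs this exact permutation test cannot go below p = 0.0312 before adjustment, which is the value for TRBD2. TRBJ2 was also lower within TRBD1, at 57.3% in liver and 53.3% in gut (-4.01 points, adjusted p = 0.037, exact permutation test), with -4.58 points in replicate 1 and -3.43 in replicate 2. Counting each clonotype once, neither call held, with -3.19 points for TRBD2 (adjusted p = 0.111) and -0.745 for TRBD1 (adjusted p = 0.306, exact permutation tests). Without a D call it was 62.1% and 59.5% (adjusted p = 0.0556, exact permutation test), with -2.41 points in replicate 1 and -2.82 in replicate 2. Without TRBV26 the TRBJ2 share of CD4+ TRBD2 was 93.3% in liver and 94.2% in gut (0.877 points, exact permutation p = 0.25), with -0.608 points in replicate 1 and 2.36 in replicate 2. That of TRBD1 was then 57.5% and 54.4% (-3.12 points, adjusted p = 0.0556, exact permutation test), with -4.24 and -2.01.

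The TRBJ1 share of TRBD2 among TRBV26 clonotypes was itself high at every site, at 34.8% before HCT, 38.0% in liver and 42.2% in gut, against 6.42%, 6.70% and 5.82% with other V segments. In CD8+ cells TRBJ2 held 92.3% of TRBD2 in liver and 92.2% in gut (adjusted p = 0.870, exact permutation test) and 59.2% and 59.0% of TRBD1. Within replicates 1 and 2 these differences were -0.966 and 0.688 points for TRBD2 and -1.28 and 0.897 for TRBD1. Without a D call it was lower in gut, at 62.5% against 64.9% (-2.38 points, exact permutation p = 0.0185, adjusted p = 0.037), with -2.43 points in replicate 1 and -2.32 in replicate 2. That CD8+ class held no TRBV26, and its difference was the same without TRBV26 while its p adjusted over the 6 tests became 0.0556 (exact permutation test). The call was lost without either replicate of liver STAT3ko, of liver STAT3koPD-1ko or of gut WT. It was also lost with the replicate block (adjusted p = 0.125, exact permutation test) and with each clonotype counted once, where the difference was -0.161 points (adjusted p = 0.694, exact permutation test).

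The third comparison took the mean length of all listed CDR3 sequences, including those that begin before the cysteine. In CD4+ cells TRBD2 sequences were longer in gut, at 24.2 amino acids against 18.6 in liver (5.52, adjusted p = 0.0278, exact permutation test), and TRBD1 sequences too, at 18.6 against 15.5 (3.11, adjusted p = 0.0278, exact permutation test). Within replicates 1 and 2 the differences were 6.12 and 4.92 for TRBD2 and 3.32 and 2.91 for TRBD1. The class without a call, which held 1 TRBV26 clonotype, was shorter in gut, at 12.7 against 12.9 (-0.211, adjusted p = 0.037, exact permutation test), but by -0.0496 in replicate 1 and -0.372 in replicate 2, and the call was lost without any 1 of the 6 liver libraries. Over CDR3s from the cysteine it was -0.0268 (adjusted p = 0.509), and by the sense match, which moved TRBV26 clonotypes into this class, 3.38 (adjusted p = 0.0185, exact permutation tests). Over CDR3s from the cysteine to the J anchor the direction turned, with -0.169 for TRBD2 and -0.0804 for TRBD1 (adjusted p = 0.347 each, exact permutation test). Without TRBV26 TRBD2 was at 14.4 in liver and 14.6 in gut (0.115, adjusted p = 0.222, exact permutation test) and TRBD1 at 13.9 and 13.8 (-0.0702). Within replicates 1 and 2 these were 0.126 and 0.104 for TRBD2, and -0.000369 and -0.140 for TRBD1. In CD8+ cells TRBD2 was at 14.7 and 15 (adjusted p = 0.0833, exact permutation test, and 0.0469 with the replicate block), with 0.375 in replicate 1 and 0.135 in replicate 2. That CD8+ difference was -0.00103 without TRBV26, -0.0862 over CDR3s from the cysteine and -0.0576 by the sense match. For CD8+ TRBD1 it was 0.121 in replicate 1 and -0.173 in replicate 2. For CD8+ no D it was -0.0896 in all, 0.0306 in replicate 1 and -0.210 in replicate 2.

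Each combination of D class and J segment was then tested as a percent of listed frequency on the log2(percent + 0.1) scale, with limma. In CD4+ cells 11 of the 34 combinations at a mean of 0.5% or more passed an adjusted p of 0.05 between gut and liver (32.4%), of which 5 were higher in gut (14.7%) and 6 lower (17.6%). The median log2 difference over the 34 was -0.05. Leaving out 1 library gave 7 to 13 such combinations, counting each clonotype once gave 2, and CDR3s from the cysteine gave 0 (limma, with 5 at an unadjusted p under 0.05). The count was 7 without liver STAT3ko replicate 2, either replicate of liver STAT3koPD-1ko, gut WT replicate 2 or gut STAT3koPD-1ko replicate 2. All 5 higher ones were TRBD2 combinations, 4 of them with TRBJ1 segments. TRBD2 with TRBJ1-3 ranged from 0.601% to 1.04% in liver (median 0.767%) and from 1.70% to 2.45% in gut (median 1.93%), a log2 difference of 1.25 ± 0.14 (SE, limma adjusted p = 4.52e-06), without overlap. TRBD2 with TRBJ1-4 ranged from 0.513% to 0.902% in liver and from 1.43% to 1.83% in gut (log2 difference 1.09), also without overlap. TRBD2 with TRBJ1-2 was at 0.482% and 1.02% (0.97) and with TRBJ1-1 at 1.23% and 2.38% (0.88), the latter with 1 gut library inside the liver range. The TRBJ1-2 combination, at 0.270% before HCT, reached the mean of 0.5% only through gut, the site where it was higher. TRBD2 with TRBJ2-3 was at 3.53% and 4.32% (0.29, limma adjusted p = 0.0436), a call lost in 9 of the 12 fits that left out 1 library, and its log2 difference was -0.016 by the sense match.

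The 6 lower combinations were all of TRBD1 or of no D. TRBD1 with TRBJ2-5 held 5.00% of the liver and 3.72% of the gut frequency (log2 difference -0.42, limma adjusted p = 0.0126), and TRBD1 with TRBJ1-5 at 1.11% and 0.711% (-0.57, lost in 7 of the 12 fits that left out 1 library). Without a D call TRBJ1-5 was at 0.689% and 0.412% (-0.64), TRBJ1-6 at 1.02% and 0.716% (-0.50, lost in 7 such fits) and TRBJ2-7 at 4.73% and 3.43% (-0.47). This TRBJ1-5 combination lay under 0.5% in gut and reached that mean through liver and the libraries before HCT (0.805%). The last, TRBJ2-5 without a D call, lay outside the limit of 5 per direction and is named after its values were seen, at 3.40% and 2.63% (-0.37). Without TRBV26, 0 of 31 combinations passed in limma, with 7 at an unadjusted p under 0.05, and TRBD2 with TRBJ1-1 then had a log2 difference of -0.54. With D assigned by the sense match, 2 passed, both of the no D class: TRBJ1-4 (0.38) and TRBJ1-5 (-0.45, limma adjusted p = 0.0393 each). In CD8+ cells 0 of 31 combinations passed in limma (0%), with 4 at an unadjusted p under 0.05 and a lowest adjusted p = 0.143.

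**Figure D5:**
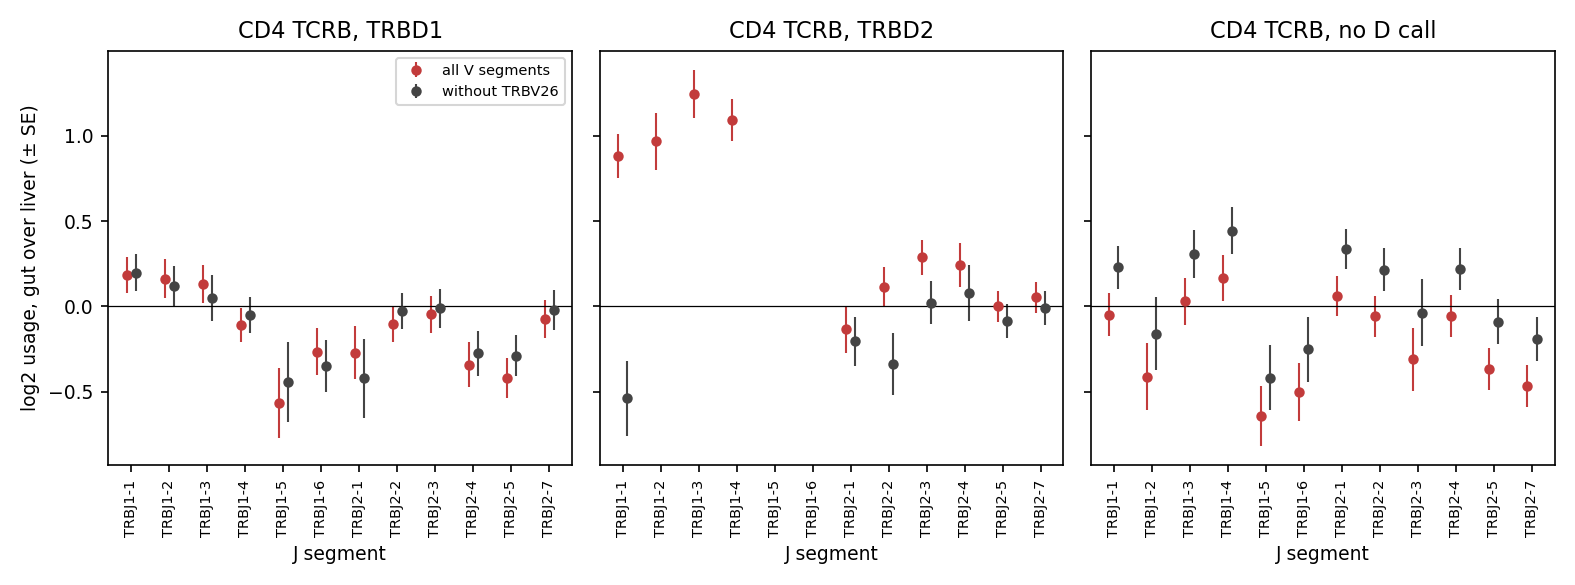
Log2 difference in usage between gut and liver in CD4+ cells (axis in log2 units, ± SE, n = 6 libraries per tissue) for each J segment joined to TRBD1, TRBD2 or no D, with all V segments in red and without TRBV26 in dark. The red points of TRBD2 with TRBJ1-1 to TRBJ1-4 lie between 0.88 and 1.25, while without TRBV26 TRBJ1-1 lies at -0.54 and the other TRBJ1 segments fall under the 0.5% needed to be plotted.

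Donor T cells before HCT were also set beside the day 6 tissues, the liver and gut comparisons sharing these 3 libraries. The CD4+ TRBD2 share before HCT was 23.9% in WT, 25.4% in STAT3ko and 26.4% in STAT3koPD-1ko cells. It was 2.18 points higher in liver and 8.0 higher in gut, 6 of 6 libraries above all 3 each time, at p = 0.0119, the smallest the exact permutation test allows, and an adjusted p = 0.0714. TRBD1 differed from before HCT by 0.284 points in liver and -2.43 in gut, and no D by -2.46 and -5.57, with adjusted p from 0.0952 to 0.738 (exact permutation test). Without TRBV26 the CD4+ TRBD2 share before HCT was 23.3%, beside 23.8% in liver and 22.9% in gut. In CD8+ cells, with 28.6%, 29.2% and 27.7% TRBD2 before HCT, every adjusted p lay between 0.490 and 0.688 (exact permutation test).

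The genotypes of the donor T cells were compared over the day 6 libraries. The CD4+ TRBD2 share was 33.1% in gut and 27.2% in liver for WT, 32.6% and 27.4% for STAT3ko, and 33.9% and 27.5% for STAT3koPD-1ko cells (n = 2 per tissue). The largest difference between 2 genotype means was 0.715 points for CD4+ TRBD2, 1.92 for TRBD1 and 2.64 for no D. The spread of the 3 genotype means gave p = 0.639, 0.393 and 0.321 in exact permutation tests. Without TRBV26 the largest CD4+ TRBD2 difference was 1.31 points (exact permutation p = 0.326). In CD8+ cells the differences with all V segments were 1.17 points for TRBD2, 0.932 for TRBD1 and 1.29 for no D. None passed, with an adjusted p = 0.684 for each of the 6 exact permutation tests, which with 2 libraries per genotype and tissue had little power to show a small difference.

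The V segment moved with the D call. In CD4+ cells the share without a D call was highest for TRBV12-1 (46.8% ± 7.74), TRBV12-2 (40.6% ± 7.03) and TRBV16 (38.4% ± 3.71). It was lowest for TRBV26 (0.00673%), TRBV19 (22.8% ± 6.11) and TRBV13-3 (28.0% ± 3.76). Of frequency with a D call, TRBD1 held most with TRBV29 (81.1% ± 7.47), TRBV1 (80.0% ± 5.17) and TRBV14 (73.9% ± 5.41), and least with TRBV26 (36.8% ± 1.53), TRBV12-1 (44.4%) and TRBV12-2 (45.7%). By the sense match TRBV26 stood at 73.1% TRBD1, and TRBV12-1 and TRBV12-2 at 37.2% and 37.5%. In CD8+ cells the share without a D call was highest for TRBV13-1 (39.8% ± 4.55), TRBV13-2 (37.7% ± 5.10) and TRBV12-1 (37.4% ± 2.44), and lowest for TRBV26 (0%), TRBV4 (17.9% ± 4.04) and TRBV3 (23.6% ± 4.48). TRBV29 led for TRBD1 here as well, at 80.0% ± 2.07 (77.0% by the sense match), followed by TRBV1 (63.8%) and TRBV13-1 (61.7%), and TRBV4 (41.3%) and TRBV3 (44.6%) came lowest after TRBV26 (35.0%). By the sense match TRBV26 was at 65.1% in CD8+ cells, above TRBV4 (37.3%) and TRBV3 (39.8%).

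The V and J segments whose usage over the 15 libraries was most like that of each class are given as a description, since they share libraries and a sum. Among 33 segments in CD4+ cells, TRBD2 was nearest to TRBV26 (Pearson's r = 0.956), TRBV23 (0.943) and TRBV12-2 (0.828). TRBD1 was nearest to TRBJ1-5 (0.764), TRBJ2-5 (0.697) and TRBJ2-1 (0.681), and no D to TRBJ2-7 (0.862), TRBV16 (0.851) and TRBV4 (0.845). Among 30 segments in CD8+ cells the highest value for TRBD2 was 0.438 (TRBJ2-5), for TRBD1 0.802 (TRBV1) and for no D 0.673 (TRBV12-2). No V or J segment followed CD8+ TRBD2 as closely as TRBV26 followed it in CD4+ cells.

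A larger share of the clonotypes without a D call was listed in many libraries. Over CDR3s that start at the cysteine, 2.24% of CD4+ clonotypes without a call were in 10 or more libraries, against 1.23% of TRBD1 and 1.03% of TRBD2 clonotypes. In CD8+ cells the shares were 3.41%, 1.88% and 2.28%. Those in all 15 libraries numbered 24 of 19111 without a call, 13 of 30424 with TRBD1 and 9 of 17941 with TRBD2 in CD4+ cells, and 65 of 21595, 69 of 33581 and 52 of 24363 in CD8+ cells. The libraries share their C57BL/6 background, and sharing was not tested between the classes.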

How the data were processed

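TCRβ transcripts were amplified with a mouse TCR α/β profiling kit from sorted CD4+ and CD8+ T cells and sequenced by the authors, who called clonotypes with MiXCR and merged the libraries of a cell type with VDJtools. The labels name the build mm10. Each clonotype frequency is a deposited fraction of the reads of a library, formed by the authors before the merge, and the V, D and J positions and the number of libraries are deposited as whole numbers (unit score). Only clonotypes in at least 2 of 18 joined libraries are listed. Of these libraries 15 per table have a column here and were used, and the other 3 have no column here and were not analysed. Library columns left unused numbered 0. No counts are given, so depth is unknown.

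Frequencies were divided by the listed total of a library. D stretches were compared with germline segments of the GRCm38 annotation. Groups came from the labels. Shares, TRBJ2 shares and lengths were compared by exact two-sided permutation tests within genotype for gut against liver and without strata against before HCT, and genotypes by exact permutation within tissue, with Benjamini-Hochberg adjustment over the 6 tests of a comparison, or over 12 for both comparisons with before HCT. Usage of D and J combinations with a mean of at least 0.5% was tested on log2(percent + 0.1) with limma 3.58.1 in R 4.3.3, after adjustment for genotype and over all combinations of a table. Python 3.11.15, numpy 2.4.6, pandas 2.3.3, Biopython 1.88 and matplotlib 3.10.9 were used. Both tests were tested on simulated data.

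The members and lists were chosen with earlier results of these data known. Named were all J segments, at most 5 combinations past an adjusted p of 0.05 per direction and table, the 3 V segments (mean usage at least 1%) highest and lowest for no D and for TRBD1, the 3 segments most like each class, and the leading clonotypes of each class, 3 for each D segment, 2 without D and 2 of TRBD2 with TRBJ1. The TRBV26 stretch was chosen after its values were seen. Alternatives were the weight of a clonotype, the CDR3s and clonotypes kept, the length of the D stretch, leaving out TRBV26, the denominator, V usage, the replicate block, pseudocounts, the filter and each library. A sense match of D and counting reverse complement calls as no D were added after seeing the data.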

Additional observations from a re-analysis of the deposited data

Results flagged for a closer look

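A single library lay far from the other 5 of its group in 3 of the 36 groups of 6 examined, and chance alone sets a library apart in about 1 group in 20. In CD4+ gut the TRBJ2 share within TRBD2 was 81.3% in STAT3koPD-1ko replicate 2 and 74.5% to 76.5% in the others. In CD4+ gut the mean length of TRBD1 sequences was 17.8 amino acids in the same library and 18.6 to 19.0 in the others. In CD8+ liver the TRBD1 share was 39.9% in STAT3koPD-1ko replicate 1 and 41.6% to 42.6% in the others.

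The difference between gut and liver itself differed between CD4+ and CD8+ cells. For TRBD2 the CD4+ difference was 5.83 percentage points and the CD8+ difference 0.255, a gap of 5.57 (exact permutation p = 0.00216, adjusted p = 0.00649 over 3 classes). For no D it was -3.11 and 1.31, a gap of -4.42 (exact permutation p = 0.0238, adjusted p = 0.0357). That test took gut minus liver by replicate number and treated CD4+ and CD8+ cells as independent, although they may come from the same pools. With CD4+ minus CD8+ taken within each sample and the sites permuted within genotype, a test added after seeing the data, the adjusted p was 0.0278 for TRBD2 and 0.0417 for no D (exact permutation test). Without TRBV26 both gaps turned sign, to -0.909 for TRBD2 (CD4+ -0.885, CD8+ 0.0249) and 1.39 for no D (2.86 and 1.47), with an adjusted p = 0.639 for each (exact permutation test). Beside the TRBD2 gap with all V segments, TRBV26 held 9.09% of the frequency in liver and 25.4% in gut in CD4+ cells, and 0.930% and 1.4% in CD8+ cells.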

How the results depend on the processing

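The files give fractions, so the depth of each value is unknown, and CDR3s seen in 1 library of the join are not listed. A clonotype is listed by its amino acid CDR3 with 1 set of V, D and J calls, whatever other nucleotide forms its reads hold. The direction of the CD4+ TRBD2 difference between gut and liver turned under 5 alternatives: without TRBV26, with CDR3s from the cysteine only, with D called by the sense match in every V segment, with reverse complement calls as no D, and with 1 V usage. It also turned with the whole library as denominator, a scaling that lowered all 3 classes of gut in both tables. Requiring a D stretch of at least 6 bases left all 36 results tried with the same direction and the same side of the threshold, as did pseudocounts of 0.01 and 1 and no filter on low usage for the 2 counts of D and J combinations. Values below are differences that turned sign or crossed an adjusted p of 0.05 (exact permutation tests, or limma for combinations), in percentage points for shares and amino acids for lengths, and their causes were not tested.

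Without TRBV26, 25 of 38 results kept direction and side of the threshold. Gut minus liver was -0.885 for the CD4+ TRBD2 share and 2.86 for no D, and gut minus before HCT was -0.366 and 1.72. The gut minus liver TRBJ2 share was -3.12 within CD4+ TRBD1, 0.877 within CD4+ TRBD2, 0.471 within CD8+ TRBD2 and -2.38 within CD8+ no D. CDR3 length differed by -0.0702 in CD4+ TRBD1, 0.115 in CD4+ TRBD2, -0.211 in CD4+ no D and -0.00103 in CD8+ TRBD2. In CD4+ cells 0 combinations passed in limma, against 7 at an unadjusted p under 0.05, and TRBD2 with TRBJ1-1 had a log2 difference of -0.54.

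Keeping only CDR3s from the cysteine to the J anchor, gut minus liver was -0.849 for the CD4+ TRBD2 share and 2.33 for no D, and gut minus before HCT was -0.316 and 1.14. The TRBJ2 share differed by 0.821 within CD4+ TRBD2, -3.81 within CD4+ no D (now past the threshold) and 0.452 within CD8+ TRBD2. Length differed by -0.0804 in CD4+ TRBD1, -0.169 in CD4+ TRBD2, -0.0268 in CD4+ no D and -0.0862 in CD8+ TRBD2. In CD4+ cells 0 combinations passed in limma, against 5 at an unadjusted p under 0.05, and TRBD2 with TRBJ1-1 was at -0.53.

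Assigning D by the sense match, an alternative chosen after seeing the data, gave gut minus liver shares of 0.403 for CD4+ TRBD1, -2.02 for TRBD2 and 1.61 for no D. Gut minus before HCT was 1.47, -1.82 and 0.356, and liver minus before HCT was -0.287 for CD8+ TRBD1. The TRBJ2 share differed by -4.18 within CD4+ TRBD1, -0.751 within CD4+ TRBD2, 0.0889 within CD8+ TRBD2 and -1.55 within CD8+ no D. Length differed by 3.38 in CD4+ no D, 0.0397 in CD8+ TRBD1, -0.0576 in CD8+ TRBD2 and 0.0457 in CD8+ no D. In CD4+ cells 2 combinations passed, no D with TRBJ1-4 and no D with TRBJ1-5. TRBD2 did not pass with TRBJ1-1 (-0.10) or TRBJ2-3 (-0.016).

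Counting reverse complement calls as no D, also chosen after seeing the data, gave gut minus liver shares of -1.66 for CD4+ TRBD2 and 4.35 for no D, and gut minus before HCT of -1.34 and 3.8. The TRBJ2 share differed by -2.11 within CD4+ TRBD2, -4.22 within CD4+ no D (now past the threshold) and 0.129 within CD8+ TRBD2, and length by 3.85 in CD4+ no D and 0.0523 in CD8+ no D. Standardising to 1 V usage gave gut minus liver shares of -0.865 for CD4+ TRBD2, 1.86 for CD4+ no D and -0.266 for CD8+ TRBD2, and gut minus before HCT of -0.340 and 1.27 for the CD4+ classes.

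Counting each clonotype once gave -0.261 for the CD8+ TRBD2 share in gut minus liver and -0.444 for CD8+ no D in liver minus before HCT. The TRBJ2 share differed by -0.745 within CD4+ TRBD1, -3.19 within CD4+ TRBD2 and -0.161 within CD8+ no D, length by -0.0646 in CD4+ no D, 0.0593 in CD8+ TRBD1 and 0.50 in CD8+ TRBD2 (now past the threshold), and 2 CD4+ combinations passed. Keeping clonotypes of at least 3 libraries gave -1.26 for CD4+ and -0.488 for CD8+ TRBD1 in liver minus before HCT, TRBJ2 differences of 0.291 within CD8+ TRBD2 and -1.94 within CD8+ no D, and length differences of -0.194 in CD4+ no D and 0.0235 in CD8+ TRBD1.

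As a percent of the whole library, by construction lower where less is listed, gut minus liver was -12.2 for CD4+ TRBD1, -2.74 for TRBD2 and -9.65 for no D, and -10.4, -6.21 and -6.34 in CD8+ cells. Liver minus before HCT was -0.810 for CD4+ TRBD1, -0.686 for CD8+ TRBD1 and -0.434 for CD8+ no D, and gut minus before HCT was -1.40 for CD4+ TRBD2 and -6.77 for CD8+ no D. In CD4+ cells 25 combinations passed, their median at -0.53 over all 34, with TRBD2 with TRBJ2-3 at -0.20, and 1 passed in CD8+ cells.

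The study's methods name 2 batches of pooled mice, and the labels do not say whether a replicate number marks a batch. The correlation of same-numbered deviations over combinations was 0.412, 0.209 and 0.0419 between liver and gut of the 3 genotypes in CD4+ cells and 0.167, -0.141 and -0.434 in CD8+ cells, so that not every pair deviated together. Between genotypes it was 0.635, 0.250 and 0.251 in CD4+ gut and 0.198, 0.511 and 0.417 in CD8+ gut, and -0.153 to 0.160 in liver. With the replicate number as a block, 22 of 26 results kept their side of the threshold, and 13 CD4+ combinations passed. Differences of -4.01 within CD4+ TRBD1, -10.1 within CD4+ TRBD2 and -2.38 within CD8+ no D in the TRBJ2 share no longer passed, and 0.255 for CD8+ TRBD2 length did, with no other share or length call changed.

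Leaving out each library in turn, gut minus liver of the TRBJ2 share ranged from -4.45 to -3.47 within CD4+ TRBD1 and from -11.1 to -9.51 within CD4+ TRBD2, both lost without liver or gut STAT3ko replicate 1. It ranged from -3.31 to -2.06 within CD4+ no D (past the threshold without gut STAT3ko replicate 2), from -0.800 to 0.231 within CD8+ TRBD1, from -0.441 to 0.230 within CD8+ TRBD2 and from -2.97 to -1.85 within CD8+ no D. The last was lost without either replicate of liver STAT3ko, of liver STAT3koPD-1ko or of gut WT. Length differences ranged from -0.256 to -0.162 in CD4+ no D (lost without any liver library), from -0.0611 to 0.0114 in CD8+ TRBD1 and from 0.199 to 0.307 in CD8+ TRBD2 (past the threshold without gut WT or gut STAT3ko replicate 2). The CD8+ TRBD2 share ranged from -0.0721 to 0.498 in gut minus liver, and liver minus before HCT from -0.177 to 0.795 for CD4+ TRBD1 and from -0.233 to 1.16 for CD8+ no D. From 7 to 13 CD4+ combinations passed, with 7 without liver STAT3ko replicate 2, either replicate of liver STAT3koPD-1ko, gut WT replicate 2 or gut STAT3koPD-1ko replicate 2. In CD8+ cells 0 or 1 passed, the latter without gut STAT3koPD-1ko replicate 1. TRBD2 with TRBJ1-1, TRBJ1-2, TRBJ1-3 and TRBJ1-4 passed in 12 of 12 such fits, whereas TRBD2 with TRBJ2-3 lost its call in 9, TRBD1 with TRBJ1-5 in 7 and no D with TRBJ1-6 in 7.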
